A study of Mus musculus with 8 samples.

Results

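The mitochondrially encoded genes were examined in visceral white adipose tissue (vWAT) of wild-type (WT) and KIKO mice. They were taken as every Ensembl gene whose GRCm38 symbol starts with mt-, which gave 37 genes, namely 13 mRNAs, 2 rRNAs and 22 tRNAs, beside 31053 genes in the count table. All 13 mRNAs had a row in that table, whereas the 2 rRNAs (*mt-Rnr1* and *mt-Rnr2*) and the 22 tRNAs had none and were not analysed here. The study sequenced RNA of vWAT from 4 WT and 4 KIKO mice, all males of 8 months on a C57BL/6 background, with 1 library per mouse. The sample titles name the depot as EWAT. KIKO is the genotype as the labels give it, and it is carried through the germline, so that every cell type of the tissue has it. In bulk tissue fewer cells of a type cannot be told apart from less RNA per cell.

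Mitochondrial DNA is a small circle present in many copies per cell. It is transcribed from both strands into long RNAs that run through many genes, and the tRNAs between the mRNAs and rRNAs are cut out to release the single transcripts. Its mRNAs encode membrane core subunits of complexes I, III, IV and V, which pump protons during respiration or use the proton gradient to make ATP, whereas all of complex II and most subunits of the other complexes come from nuclear genes. White adipocytes hold fewer mitochondria than brown or beige adipocytes, which burn fuel for heat.

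Levels are given as counts or as CPM, which are counts relative to the library total, scaled by edgeR's TMM factors. Totals per library ran from 2602189 to 3478539 counts. On the first principal component WT mouse 3 lay at 12.6, among the KIKO mice (4.04 to 24.0) and away from the other WT mice (-38.6 to -8.43), so that results which it moves are also given without it. That mouse was picked for lying among the KIKO mice, so leaving it out tends to widen differences between genotypes and is no separate support. All 8 genes of a testis and epididymis list were at 0 in every library.

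Several of the mRNAs have close copies in the nuclear genome, and a read from such shared sequence cannot be placed by its sequence alone. Each mRNA was cut into all windows of 75 bases, the read length, and each window was looked for in every other transcript of the GENCODE M21 annotation. *mt-Nd1*, *mt-Cytb*, *mt-Nd6* and *mt-Atp8* shared no window with another transcript, *mt-Nd5* shared 29 of 1750 (1.66%) and *mt-Nd2* shared 55 of 964 (5.71%). *mt-Co1* shared 586 of 1471 windows (39.8%), among them all of its last 100. *mt-Nd4* shared 802 of 1304 (61.5%), but none of its last 502. The other 5 mRNAs were almost wholly shared, with 97.8% of windows for *mt-Nd3*, 98.7% for *mt-Nd4l*, 99.5% for *mt-Co2*, 99.5% for *mt-Atp6* and 99.9% for *mt-Co3*. The copies were 12 annotated pseudogenes, and none of them had a row in the count table. On chromosome 1, 7 of them lay in 1 cluster on the minus strand between 24611535 and 24616197, with a copy of *mt-Nd4*, *mt-Nd4l*, *mt-Nd3*, *mt-Co3*, *mt-Atp6*, *mt-Co2* and the last part of *mt-Co1*. The other 5 lay on chromosomes 2, 4 and 13.

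The 3′ ends of 5 mRNAs and of 2 copies are printed here from the GENCODE transcripts (GRCm38, 75 bases each) because they show which genes end in sequence that is found nowhere else among the annotated transcripts. Capitals mark the stop codon, or the single T that the DNA encodes of a stop codon which polyadenylation of the RNA completes. *mt-Nd4* (chrM:11470-11544, plus strand) and *mt-Cytb* (chrM:15214-15288, plus strand) end in such sequence, and both are among the 3 genes whose stop codon is incomplete. The end of *mt-Co1* (chrM:6798-6872, plus strand) is identical in Gm29216. Gm28437 (chr1:24613189-24613263, minus strand) ends 1 base before *mt-Co3* (chrM:9316-9390, plus strand) and Gm28661 (chr1:24614885-24614959, minus strand) ends 3 bases before *mt-Co2* (chrM:7622-7696, plus strand), and the copies have no capitals for that reason.
mt-Nd4: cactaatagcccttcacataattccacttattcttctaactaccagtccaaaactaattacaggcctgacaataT
mt-Cytb: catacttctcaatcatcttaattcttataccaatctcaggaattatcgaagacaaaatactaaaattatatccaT
mt-Co1: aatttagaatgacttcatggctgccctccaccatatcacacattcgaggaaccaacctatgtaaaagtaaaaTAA
mt-Co3: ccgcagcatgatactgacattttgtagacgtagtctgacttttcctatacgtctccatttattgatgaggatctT
Gm28437: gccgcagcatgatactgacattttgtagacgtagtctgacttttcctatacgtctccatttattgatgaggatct
mt-Co2: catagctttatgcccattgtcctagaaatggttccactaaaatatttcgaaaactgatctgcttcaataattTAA
Gm28661: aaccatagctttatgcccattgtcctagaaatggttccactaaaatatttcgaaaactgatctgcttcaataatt

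Over the full length of the copies, Gm28437 was identical to *mt-Co3* at 783 of 783 bases, Gm28661 to *mt-Co2* at 681 of 681, Gm10925 to *mt-Atp6* at 678 of 678, and Gm10222 to *mt-Nd4l* at 294 of 294. Gm28438 matched *mt-Nd3* at 344 of 345 bases and differed by T3C, the mitochondrial base first and the position counted from the gene's 5′ end. Gm28439 held the first 876 bases of *mt-Nd4* without a change. Gm29216 matched 486 of 492 bases of *mt-Co1*, and its 6 differences all lay between positions 1056 and 1066 (the first is T1056A and the last A1066T), at the 5′ end of the copy. No genome sequence was used, so nuclear copies outside annotated transcripts were not searched for.

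In vWAT the counts of the 13 mRNAs fell into an abundant and a scarce set. *mt-Nd4* had the highest count of all genes in each of the 8 libraries, and *mt-Cytb* (rank 3 to 9), *mt-Nd2* (4 to 10) and *mt-Nd1* (9 to 13) were close behind. *mt-Nd5* ranked 28 to 66 and *mt-Co1* 87 to 124, whereas none of the other 7 ranked above 6524. Per kilobase of transcript, levels in WT mice were 38419 ± 11204 CPM for *mt-Nd4*, 11739 ± 3232 for *mt-Nd2*, 11695 ± 3199 for *mt-Cytb*, 8434 ± 1392 for *mt-Nd1*, 897 ± 248 for *mt-Nd5* and 523 ± 51.6 for *mt-Co1* (mean ± SD, n = 4). The scarce set had 20.1 ± 11.0 CPM per kilobase for *mt-Nd3*, 15.5 ± 4.28 for *mt-Atp6*, 14.9 ± 5.16 for *mt-Co3*, 12.99 ± 3.04 for *mt-Co2*, 9.34 ± 3.38 for *mt-Nd6*, 2.87 ± 3.38 for *mt-Atp8* and 0 for *mt-Nd4l*. The order of the 13 means was the same in KIKO mice. Dividing by length assumes reads spread along the transcript. The study's methods and the labels name different library kits, so whether reads came mainly from 3′ ends is not known and the order is uncertain to that extent. In WT mice *mt-Nd2*, *mt-Cytb* and *mt-Nd1* had 1-SD ranges that overlapped between neighbours in this order. So had *mt-Nd3*, *mt-Atp6*, *mt-Co3*, *mt-Co2*, *mt-Nd6* and *mt-Atp8*. These ranges give the spread between mice only. All genes were measured in the same mice, and their order within each mouse was not tested.

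**Figure D1:**
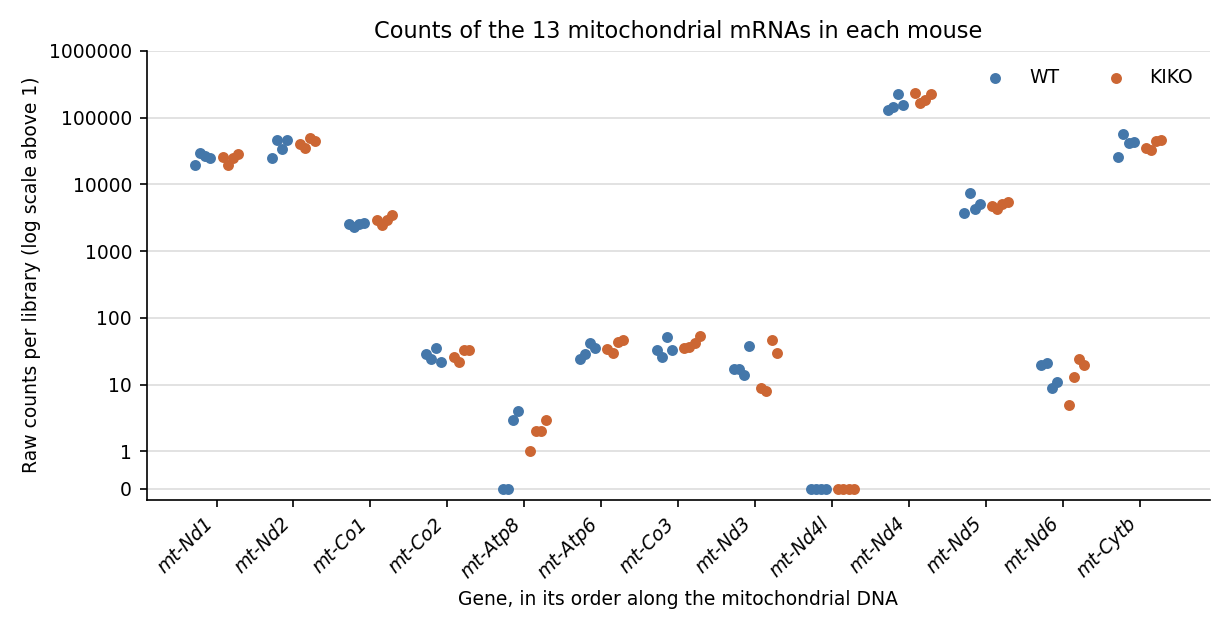
Raw counts per library (y axis, log scale above 1) of the 13 mitochondrial mRNAs in their order along the mitochondrial DNA (x axis), with 1 point per mouse for 4 WT (blue) and 4 KIKO (orange) mice. *mt-Nd4* lies at 131907 to 231796 counts in every mouse, *mt-Co2* to *mt-Nd3* lie at 53 counts or fewer, and *mt-Nd4l* is at 0 throughout.

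The 5 mRNAs with over 97% of their windows shared had 999 counts over all 8 libraries, of 2365789 counts from mitochondrial mRNAs. *mt-Nd4l*, which lies directly before *mt-Nd4* on the same RNA and overlaps it by 7 bases, had 0 counts in each library, and a count of 0 allows up to 3 counts, or 0.879 to 1.20 CPM depending on the library (counting error only). Few counts were also seen for 2 genes that shared no window with another annotated transcript. These were *mt-Atp8*, with 15 counts in all and a 43-base overlap with *mt-Atp6*, and *mt-Nd6*, with 123 counts in all. *mt-Atp8* lies between *mt-Co2* and *mt-Atp6*, whose copies are neighbours in the cluster on chromosome 1. The stretch between these copies (Gm10925 ends at 24614651 and Gm28661 starts at 24614885) is outside annotated transcripts and was not searched, so a copy of *mt-Atp8* there would not have been seen. *mt-Nd6* is the 1 mRNA gene encoded on the minus strand, and its end overlaps *mt-Nd5* by 14 bases. How reads with several equal placements were counted, and whether strand was used in counting, is not given in the sources used here. The part of shared sequence in the low counts was not tested. The levels of the 5 genes with over 97% of windows shared, of *mt-Co1*, of *mt-Nd4* and of *mt-Atp8* are uncertain for this reason. That of *mt-Nd6* is uncertain because the use of strand is not known.

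**Figure D2:**
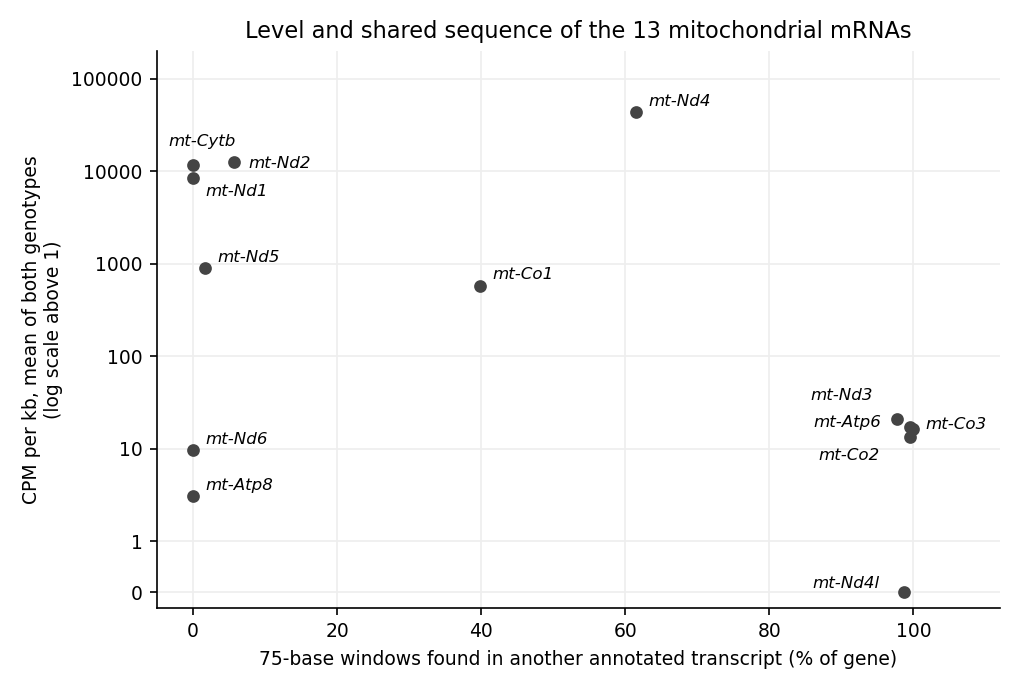
Level of each mitochondrial mRNA (y axis, mean CPM per kilobase of both genotypes, log scale above 1) against the share of its 75-base windows found in another annotated transcript (x axis, %), with 1 point per gene. The 5 genes at 97.8% to 99.9% lie at the bottom right, *mt-Nd4* stands at the top with 61.5%, and *mt-Nd6* and *mt-Atp8* are low with 0%. Levels per kilobase assume reads spread along the transcript.

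No mitochondrial mRNA passed the adjusted threshold of 0.05 between genotypes. Of the 13, 11 had enough counts to be tested and 0 passed in edgeR's quasi-likelihood test (1 at an unadjusted p under 0.05), where 0.677% of the 11080 genes tested passed (0.280% higher and 0.397% lower in KIKO mice) and 1794 genes (16.2%) had an unadjusted p under 0.05. DESeq2, which gave an adjusted p for 6 of them, and limma-voom also called 0 (1 each at an unadjusted p under 0.05). Their median log2 fold change, KIKO against WT, was 0.14, with 9 of 11 above 0, beside a median of -0.01 over all genes tested, of which 5433 of 11080 were above 0. Libraries differed in how levels followed transcript length. Spearman's rho across genes, between transcript length and the level in 1 library relative to the mean of all 8, was 0.262, 0.253, -0.1096 and 0.1100 in WT mice 1 to 4 and -0.0843 to -0.214 in KIKO mice, so that WT mouse 3 had the sign of the KIKO mice. With an offset for this trend in each library the median of the 11 was -0.07, with 5 of 11 above 0. KIKO and WT mice did not overlap for 1 of the 11, *mt-Co1*, where 8.45% of all genes tested did not overlap in either direction. The 95% confidence intervals of the fold, KIKO against WT, ran from 0.812 to 1.28 for *mt-Nd1*, from 0.866 to 1.54 for *mt-Nd2* and from 0.930 to 1.72 for *mt-Nd4*. They ran from 0.777 to 1.28 for *mt-Nd5* and from 0.730 to 1.31 for *mt-Cytb*.

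**Figure D3:**
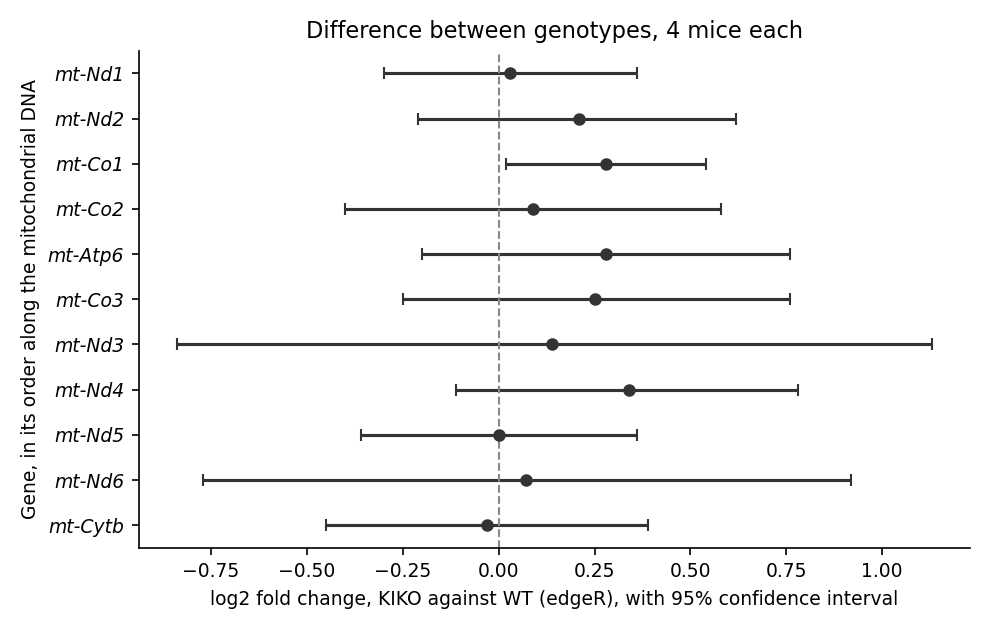
Log2 fold change of KIKO against WT mice (x axis) with its 95% confidence interval from edgeR for the 11 tested mitochondrial mRNAs (y axis), 4 mice per genotype. The interval of *mt-Co1* (0.02 to 0.54) lies to the right of 0 before adjustment over genes, the other 10 cross it, and those of the scarce *mt-Nd3* and *mt-Nd6* are the widest.

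The largest difference among the abundant members was that of *mt-Nd4*, a proton-pumping core subunit of complex I (ENSMUSG00000064363, chrM:10167-11544, plus strand). It stood at 41816, 43294, 75213 and 51443 CPM in WT mice 1 to 4 and at 76505, 66859, 58465 and 66189.9 CPM in KIKO mice 1 to 4. The KIKO mice were above WT mice 1, 2 and 4, whereas WT mouse 3 was above all KIKO mice but mouse 1. Means of 52941 ± 15439.5 and 67005 ± 7391 CPM (mean ± SD of 4 mice each) gave a log2 fold change of 0.34 (standard error, SE, 0.21, adjusted p = 0.450 from edgeR). Without WT mouse 3 it was 0.56 (adjusted p = 0.0752 from edgeR), and leaving out any other mouse gave 0.24 to 0.40. The first 876 bases of this gene are also in Gm28439, so part of its reads cannot be placed by sequence alone.

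The remaining complex I genes did not follow *mt-Nd4* closely. *mt-Nd2*, another membrane-arm subunit (chrM:3914-4951, plus strand), was at 7939, 13844, 11285 and 15674 CPM in WT and at 13247, 13866, 15906 and 13175 CPM in KIKO mice. The KIKO values lay inside a narrow band, and WT mice 1 and 3 stood below it while WT mouse 4 reached nearly the highest level. Its log2 fold change was 0.21 (SE 0.19, adjusted p = 0.646 from edgeR). *mt-Nd1*, which lies where ubiquinone enters the complex (chrM:2751-3707, plus strand), was at 6149, 9065, 8862 and 8209.8 CPM in WT and at 8464, 7885, 8119.6 and 8436 CPM in KIKO mice. All KIKO values fell between the lowest and the highest WT value, with a log2 fold change of 0.03 (SE 0.15, adjusted p = 0.949 from edgeR). *mt-Nd5*, at the far end of the membrane arm (chrM:11742-13565, plus strand), was at 1196, 2246, 1420.0 and 1682 CPM in WT against 1572, 1691, 1649 and 1614 CPM in KIKO mice. Its KIKO values were again enclosed by the WT values (1636 ± 452 and 1631 ± 50.7 CPM, log2 fold change 95% confidence interval -0.36 to 0.36, adjusted p = 0.994 from edgeR).

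The scarce complex I genes gave wide intervals. *mt-Nd3*, a small subunit at the joint of both arms of the complex (chrM:9459-9806, plus strand), had 17, 17, 14 and 38 counts in WT and 9, 8, 47 and 30 in KIKO mice. Its 2 lowest and its highest count were all from KIKO mice, and the log2 fold change of 0.14 had a 95% confidence interval of -0.84 to 1.13 (adjusted p = 0.904 from edgeR). *mt-Nd6*, the subunit encoded on the other strand (chrM:13552-14070, minus strand), had 20, 21, 9 and 11 counts in WT and 5, 13, 24 and 20 in KIKO mice. Here too the KIKO mice held both ends of the range (log2 fold change 0.07, 95% confidence interval -0.77 to 0.92, adjusted p = 0.947 from edgeR). *mt-Nd4l* (chrM:9877-10173, plus strand) could not be tested. Summed over complex I, levels were 74846 ± 16748 CPM in WT against 90923 ± 6506 CPM in KIKO mice, with overlapping groups and a log2 ratio of 0.28. *mt-Nd4* made up most of both sums, and the other complex I genes summed to 21905 ± 4759 and 23919 ± 1189 CPM (log2 ratio 0.13).

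Complex III has a single mitochondrially encoded subunit, cytochrome b, which carries electrons from ubiquinol within the complex. Its gene *mt-Cytb* (ENSMUSG00000064370, chrM:14145-15288, plus strand) shared no window with another transcript and so is the abundant member, together with *mt-Nd1*, whose reads are least in doubt. It was at 8243, 16912, 14069 and 14291 CPM in WT mice 1 to 4 and at 11516, 12834, 14366 and 13587 CPM in KIKO mice 1 to 4. WT mouse 1 was the lowest and WT mouse 2 the highest of all 8, and the KIKO mice lay between them. Means were 13379 ± 3659 and 13076 ± 1214 CPM (mean ± SD of 4 mice each), with a log2 fold change of -0.03 (SE 0.20, 95% confidence interval -0.45 to 0.39, adjusted p = 0.952 from edgeR).

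Among the complex IV genes *mt-Co1* had the smallest p of all members. It encodes the catalytic subunit of cytochrome c oxidase, where oxygen is reduced (ENSMUSG00000064351, chrM:5328-6872, plus strand). It stood at 814, 695, 839 and 881 CPM in WT mice 1 to 4 and at 956, 993, 963 and 1007 CPM in KIKO mice 1 to 4. All KIKO mice were above all WT mice, WT mouse 3 included. The mean was 807 ± 79.7 CPM in WT against 980.0 ± 24.3 CPM in KIKO mice (mean ± SD of 4 mice each), a log2 fold change of 0.28 (SE 0.12, 95% confidence interval 0.02 to 0.54). This did not pass after adjustment over genes (adjusted p = 0.262 from edgeR), and across the alternatives run the adjusted p ran from 0.0887 in DESeq2 to 0.530 in edgeR without WT mouse 2, with log2 fold changes of 0.19 to 0.32. The last 100 windows of *mt-Co1* are all shared with Gm29216. Of 10 adipocyte markers 8 had log2 fold changes above 0 (-0.24 to 0.71 over the 10) and 0 passed (2 at an unadjusted p under 0.05 from edgeR). Their sum was 37195 to 44201 CPM in WT against 48559 to 65724 CPM in KIKO mice, but 11521 of the 13890.1 CPM between the means came from *Cfd*, a secreted complement protease of adipocytes that was singled out after its values were seen and whose groups overlapped. Without *Cfd* the sums overlapped, at 20368 to 25718 CPM in WT and 23277 to 27488 CPM in KIKO mice. The smallest adjusted p of the 10 was that of *Adipoq* (log2 fold change 0.54, adjusted p = 0.102 from edgeR). Its KIKO mice (5868 to 6919 CPM) were all above its WT mice (3702 to 5364 CPM). Groups did not overlap for 8.45% of all genes tested in either direction. The part of adipocytes in the *mt-Co1* values was not tested.

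The other complex IV genes were scarce. *mt-Co2*, the subunit that takes electrons from cytochrome c (chrM:7013-7696, plus strand), had 29, 24, 35 and 22 counts in WT and 26, 22, 33 and 33 in KIKO mice. *mt-Co3*, another core subunit (chrM:8607-9390, plus strand), had 33, 26, 52 and 33 counts in WT and 35, 37, 42 and 53 in KIKO mice. For both, WT mouse 3 had the highest CPM of all 8 mice and the groups overlapped, with log2 fold changes of 0.09 (SE 0.23, adjusted p = 0.877 from edgeR) and 0.25 (SE 0.24, adjusted p = 0.644 from edgeR). The complex IV sum was 828 ± 82.9 CPM in WT against 1003 ± 25.9 CPM in KIKO mice (log2 ratio 0.28), with all KIKO mice above all WT mice, and it is nearly all *mt-Co1*.

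Complex V, the ATP synthase, has 2 mitochondrially encoded subunits. *mt-Atp6*, which forms the proton path beside the rotating ring (chrM:7927-8607, plus strand), had 24, 29, 42 and 35 counts in WT and 34, 30, 43 and 47 in KIKO mice. The groups overlapped, and its 10.5 ± 2.91 and 12.7 ± 1.33 CPM (mean ± SD of 4 mice each) gave a log2 fold change of 0.28 (SE 0.22, adjusted p = 0.576 from edgeR). *mt-Atp8*, a small membrane subunit (chrM:7766-7969, plus strand), had 0, 0, 3 and 4 counts in WT and 1, 2, 2 and 3 in KIKO mice, too few to be tested. The sum of both genes was 11.1 ± 3.52 CPM in WT against 13.4 ± 1.498 CPM in KIKO mice (log2 ratio 0.27). The log2 ratios of complexes I and V were 0.17 and 0.12 without WT mouse 1, and 0.43 and 0.45 without WT mouse 3.

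**Figure D4:**
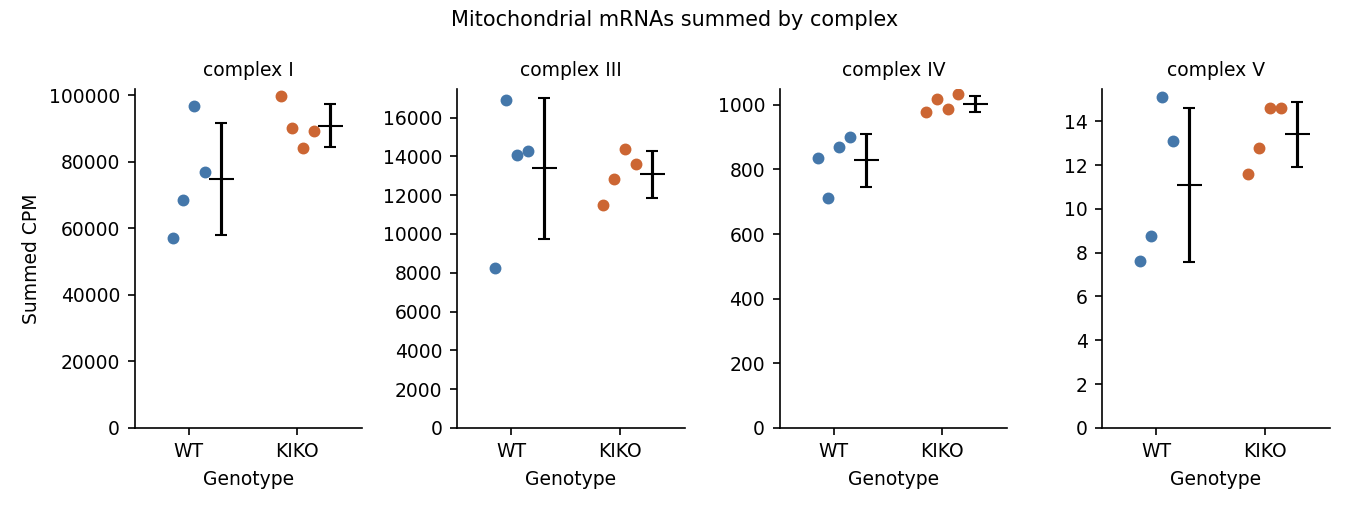
Summed CPM (y axis, from 0, with its own scale in each panel) of the mitochondrial mRNAs of complexes I, III, IV and V in WT (blue) and KIKO (orange) mice (x axis). Points are single mice and the black bars give the mean ± SD of 4 mice. Genotypes overlap for complexes I, III and V, whereas for complex IV the KIKO mice (977 to 1033 CPM) lie above the WT mice (710.5 to 899.8 CPM).

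Mitochondrial mRNAs together took 6.91%, 9.15%, 10.7% and 9.38% of all counts in WT mice 1 to 4 and 10.6%, 10.02%, 9.93% and 10.2% in KIKO mice 1 to 4. WT mouse 1 was the lowest and WT mouse 3 the highest, with the KIKO mice between WT mice 3 and 4. The means of 9.04 ± 1.58% and 10.2 ± 0.297% (mean ± SD of 4 mice each) differed by 1.15 percentage points, about the pooled SD of 1.13, and by 0.443 points without WT mouse 1 and 1.71 points without WT mouse 3. *mt-Nd4* alone took 4.36%, 4.603%, 7.21% and 5.23% in WT and 7.22%, 6.43%, 5.83% and 6.50% in KIKO mice. Without it the share was 3.69 ± 0.876% in WT and 3.69 ± 0.302% in KIKO mice, a setting chosen after its share was seen. Of the 1.15 points between genotypes, *mt-Nd4*, whose first part has a nuclear copy, held 1.14. This split rests on WT mouse 1, since without it the difference, KIKO minus WT, was 0.814 points for *mt-Nd4* and -0.371 points for the other members (4.07% in WT and 3.69% in KIKO mice).

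**Figure D5:**
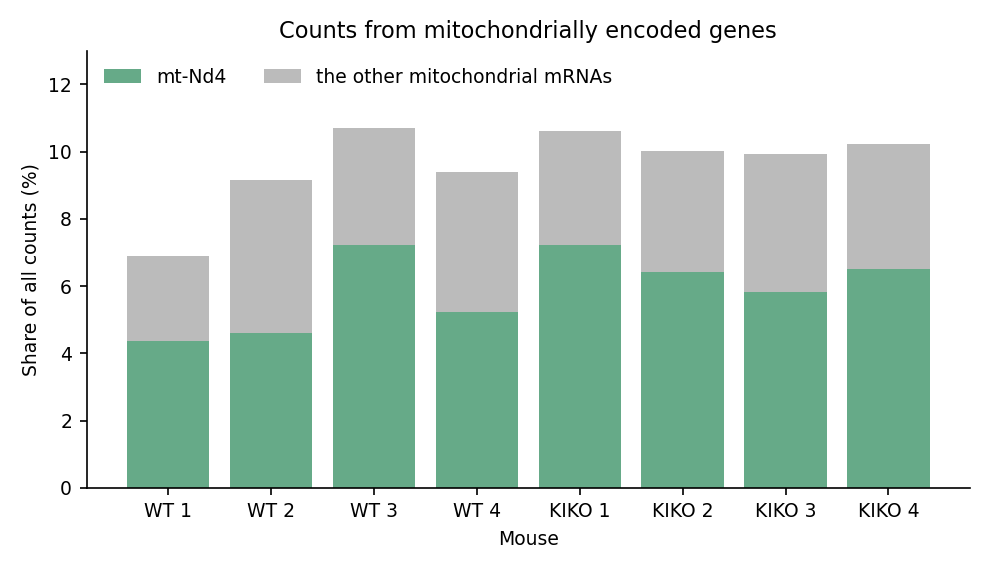
Share of all counts in each library (y axis, %) from *mt-Nd4* (green) and from the other mitochondrial mRNAs (grey, stacked) in the 8 mice (x axis). The full bars run from 6.91% in WT mouse 1 to 10.7% in WT mouse 3, the green part from 4.36% to 7.22%, and the grey part has a mean of 3.69% in both genotypes.

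Within the mitochondrial counts, *mt-Nd4* made up 63.2%, 50.3%, 67.3% and 55.8% in WT and 68.1%, 64.2%, 58.7% and 63.6% in KIKO mice. *mt-Cytb* made up 15.05 ± 3.37% in WT and 12.5 ± 1.74% in KIKO mice, *mt-Nd2* 13.8 ± 3.28% and 13.4 ± 1.81%, *mt-Nd1* 9.16 ± 1.08% and 7.84 ± 0.335%, *mt-Nd5* 1.88 ± 0.551% and 1.56 ± 0.114%, and *mt-Co1* 0.936 ± 0.214% and 0.935 ± 0.0560% (mean ± SD of 4 mice each). Genotypes overlapped for every one of these shares. The *mt-Co1* share was 1.23% in WT mouse 1 and 0.808%, 0.751% and 0.956% in WT mice 2 to 4, against 0.852% to 0.968% in KIKO mice, so that its WT mean rests on WT mouse 1. The SD between mice was larger in WT than in KIKO mice for 10 of the 12 members with a count, the exceptions being *mt-Nd3* and *mt-Nd6*, as it was for 55.8% of all genes tested, and this difference in spread was not tested.

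The nuclear-encoded partners of these subunits had log2 fold changes that were for the most part above 0, and 1 of them passed the test. Of 83 nuclear subunit genes of complexes I to V and cytochrome c, 80 were tested, 71 were above 0 and the median log2 fold change was 0.19, beside 0.14 for the mitochondrial mRNAs and -0.01 for all genes tested. With the transcript length offset the median of the 80 was 0.08 and 59 were above 0. Medians without it were 0.20 for the 36 tested of complex I, 0.29 for the 5 of complex II and cytochrome c, 0.17 for the 9 of complex III, 0.15 for the 14 of complex IV and 0.14 for the 16 of complex V. In edgeR 1 of the 80 passed and rose, where 0.677% of all genes tested passed. Of the 80, 15 (18.8%) had an unadjusted p under 0.05, beside 16.2% of all genes tested. The gene that passed was *Atpif1*, the inhibitor of ATP hydrolysis by complex V, counted here among its subunits. It was at 66.2 ± 6.25 CPM in WT against 104 ± 3.97 CPM in KIKO mice (log2 fold change 0.65, SE 0.12, adjusted p = 0.0326 from edgeR). Its groups did not overlap, as for 8.45% of all genes tested in either direction. The call was lost on leaving out WT mouse 2, WT mouse 4 or any 1 of the KIKO mice (adjusted p = 0.0513 to 0.159 from edgeR), with the transcript length offset (0.0585) and with the replicate number as a block (0.134). Its log2 fold change was 0.63 to 0.71 without 1 of these mice, 0.53 with the offset and 0.66 with the block. In these fits 0% to 0.289% of all genes tested passed. Short of the threshold, the complex I subunits *Ndufa1* and *Ndufa6* had log2 fold changes of 0.50 (adjusted p = 0.0841 from edgeR) and 0.47 (0.0980), and *Uqcrb* of complex III had 0.35 (0.176). Without WT mouse 3, 654 of 11261 genes (5.81%) passed in edgeR, among them 11 of these 80 nuclear genes and 0 of the 11 mitochondrial mRNAs (3 at an unadjusted p under 0.05). Summed mitochondrial mRNAs were 4.28 ± 0.500 times the summed nuclear subunits in WT and 4.52 ± 0.171 times in KIKO mice (mean ± SD of 4 mice each), with overlapping groups.

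Genes that make and process mitochondrial RNA were examined as lists. Of 10 mitochondrial transcription genes 6 were tested and none was above 0 or passed, with a median log2 fold change of -0.17. *Tfam*, which packs and starts transcription of mitochondrial DNA, was at 15.6 ± 2.102 CPM in WT against 14.2 ± 3.799 CPM in KIKO mice (mean ± SD of 4 mice each; log2 fold change -0.15, adjusted p = 0.789 from edgeR). *Polrmt*, the mitochondrial RNA polymerase, was at 19.4 ± 3.87 and 18.7 ± 3.04 CPM (-0.05, adjusted p = 0.919 from edgeR), and *Mterf4*, of the transcription termination factor family, had a log2 fold change of -0.43 (adjusted p = 0.341 from edgeR). None of the 6 reached an unadjusted p under 0.05, so a lower level of these genes was not shown. The other 4 had too few counts to be tested. Among them *Tefm*, singled out after its values were seen, had 8, 7, 7 and 8 counts in WT and 2, 3, 4 and 3 in KIKO mice. Its groups did not overlap, as was so for 8.45% of all genes tested in either direction. The groups of the rest of the 4 overlapped.

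Of 22 genes of mitochondrial RNA processing and decay 21 were tested, 14 were above 0 and 0 passed in edgeR (2 at an unadjusted p under 0.05), with a median log2 fold change of 0.07. *Lrpprc*, which stabilises mitochondrial mRNAs together with *Slirp*, was at 132, 167, 264 and 179 CPM in WT against 312, 289, 226 and 217 CPM in KIKO mice. WT mouse 3 was again among the KIKO mice and the groups overlapped (log2 fold change 0.49, SE 0.19, adjusted p = 0.208 from edgeR). Without that mouse *Lrpprc* had 0.71 (adjusted p = 0.0191 from edgeR), in a fit where 5.81% of all genes passed, against 0.677% with all 8 mice. *Slirp* had a log2 fold change of 0.28 (adjusted p = 0.328 from edgeR). Of 12 tested genes of mitochondrial DNA maintenance 5 were above 0 and 0 passed, and 4 had an unadjusted p under 0.05 in edgeR, as had 16.2% of all genes tested. These 4 were the nuclease *Mgme1* with a log2 fold change of 0.55, the deoxynucleoside kinase *Dguok* with 0.34, the pyrimidine nucleotide carrier *Slc25a33* with -0.73 and the DNA polymerase subunit *Polg* with -0.36. Of 7 tested regulators of mitochondrial biogenesis 0 passed (1 at an unadjusted p under 0.05 in edgeR), with a median of -0.05, and *Nrf1* had -0.38 (adjusted p = 0.306 from edgeR).

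Cell type markers were set beside the mitochondrial values. Summed brown or beige adipocyte markers ranged from 34.2 to 55.1 CPM in WT and from 44.7 to 157 CPM in KIKO mice, with *Zic1* at 0 in every library. *Cidea*, a lipid droplet protein of brown and beige adipocytes, accounted for most of the range, at 9.51, 12.7, 18.4 and 12.7 CPM in WT against 117, 14.0, 11.7 and 45.4 CPM in KIKO mice. *Ucp1*, the uncoupling protein of heat-producing adipocytes, had 0 counts in all WT mice and 1 count in each KIKO mouse, under the 3 counts that a count of 0 allows. Of the 4 tested brown or beige markers 0 passed in edgeR (1 at an unadjusted p under 0.05). Summed macrophage markers ranged from 952 to 1175 CPM in WT and from 1342 to 1680.5 CPM in KIKO mice, summed endothelial markers from 588 to 771 and from 359 to 637 CPM, and summed striated muscle markers from 30.9 to 85.6 and from 23.3 to 76.6 CPM. Fibroblast and progenitor sums were 2765 to 3039 and 3316 to 3922 CPM, mostly *Dcn*. Mesothelial, mast, T and B and red blood cell sums overlapped. In edgeR 1 of 8 macrophage (higher), 1 of 8 endothelial (lower), 0 of 7 fibroblast, 1 of 6 mesothelial (higher) and 2 of 5 mast cell markers (higher) passed, where 0.677% of all genes tested passed. Of the 5 tested mast cell markers only these 2 were above 0. The median log2 fold change of the 5 was -0.34 (range -1.24 to 1.58). The part of these cell types in the mitochondrial counts was not tested.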

How the data were processed

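RNA of vWAT from 4 WT and 4 KIKO mice was measured, with 1 library per mouse and groups taken from the sample labels. The authors deposited raw counts per Ensembl gene, and a second table of log2 values, made from each count multiplied by 1 factor per library, plus 1. Reads of 75 bases were trimmed with Trimmomatic and aligned to GRCm38 with HISAT2, and StringTie made the count matrices for DESeq2. The library kit and instrument in the study's methods (TruSeq stranded mRNA, NextSeq) and in the labels (a digital mRNA-seq service, NovaSeq) are not the same, and the annotation release and the handling of reads with several placements are not given in the sources used here. Totals of 2602189 to 3478539 counts limit the precision of the scarce genes.

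Counts were tested in R 4.3.3 with edgeR 4.0.16 (filterByExpr, TMM, quasi-likelihood test, genotype as the only term), with Benjamini-Hochberg adjustment over 11080 genes and a threshold of 0.05. Each standard error was derived from the fold change and the test statistic. Sums, shares and ratios over members have no test. Sequences and coordinates came from GENCODE M21 (GRCm38). The genes named are the 37 members, nuclear copies, the up to 4 tested genes of each nuclear list with the smallest adjusted p, *Tfam*, *Polrmt* and *Lrpprc*. *Ucp1*, *Cidea*, *Cfd*, *Adipoq* and *Dcn* are named as markers and *Tefm* for its counts. The members and lists were chosen with earlier results of these data known. Alternatives were other normalizations and filters, DESeq2 1.42.0, limma 3.58.1 (voom, and trend on the log2 values), a transcript length offset (mgcv 1.9.3), the replicate number as a block, and leaving out each mouse. The steps were tested on simulated data of 10924 genes, where 72.7% of 2-fold and 24.0% of 1.5-fold changes passed and 4 of 100 passing genes were unchanged. No 2 libraries of a genotype were duplicates (chi-square per gene of 4.11 to 21.5). The labels give no batch. The gene altered in KIKO mice is not reported here.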

Additional observations from a re-analysis of the deposited data

Results flagged for a closer look

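In 90 groups of 4 mice (single members, sums and shares, in each genotype), 5 had 1 mouse far from the other 3 by Dixon's 95% critical value for the gap over the range, and chance gives about 1 in 20. For *mt-Nd3*, WT mouse 4 was at 12.7 CPM and the other WT mice at 4.69 to 5.39 CPM. The complex I sum without *mt-Nd4* was 25698 CPM in KIKO mouse 3 and 23239 to 23450.3 CPM in the other KIKO mice. *mt-Co1* made up 0.852% of the mitochondrial counts in KIKO mouse 1 and 0.954% to 0.968% in the other KIKO mice. The nuclear complex V subunits summed to 5315 CPM in KIKO mouse 3 and to 5693 to 5737 CPM in the other KIKO mice. The sum for complex II and cytochrome c was 940.4 CPM in WT mouse 3 and 701 to 729 CPM in the other WT mice.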

How the results depend on the processing

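The count of mitochondrial mRNAs past the threshold was 0 under every alternative run, with a smallest adjusted p of 0.0752 (edgeR without WT mouse 3) and 0 to 3 at an unadjusted p under 0.05. Over all genes the count of 75 became 382 with no filter on low counts, 260 in DESeq2 (of 6616 genes with an adjusted p), 45 in limma-trend with a pseudocount of 1, 40 in limma-voom, 32 with the transcript length offset and 0 to 654 when 1 mouse was left out (edgeR alone was run on 7 mice, with 654 lacking WT mouse 3, and with 0 lacking WT mouse 2, WT 4 or KIKO 4, for which 1344, 1533 and 1328 genes had an unadjusted p under 0.05). The nuclear lists, with 1 gene in all, had 3 with no filter on low counts and in DESeq2 (2 of them in complex I), 0 with the length offset (0 in complex V) and 0 to 12 without 1 mouse. Without WT mouse 3 these were 6 in complex I, 1 in complex III, 1 in complex IV, 2 in complex V, 1 in complex II and cytochrome c and 1 in RNA processing. Under the length offset the median of the 11 mRNAs was -0.07, and without *mt-Nd4* the share differed by 0.00940 percentage points rather than 1.15. Members near 0 changed sign. *mt-Nd1* gave -0.04 with library size only and -0.10 with the length offset, *mt-Co2* -0.07 with that offset, *mt-Nd3* -0.06 and -0.01 in limma-trend (pseudocounts of 1 and 8), -0.02 in limma-voom and -0.07 with the offset, and *mt-Nd6* -0.02 in limma-trend (pseudocount 1), -0.05 in limma-voom and -0.13 with the offset. *mt-Nd5*, at -0.00, gave 0.00 with DESeq2's size factors, 0.01 in DESeq2, 0.05 in limma-trend with either pseudocount and 0.04 in limma-voom, and *mt-Cytb* 0.03 in limma-trend with either pseudocount and 0.01 in limma-voom. Leaving out 1 mouse gave -0.08 to 0.09 for *mt-Nd1*, -0.43 to 0.59 for *mt-Nd3*, -0.13 to 0.19 for *mt-Nd5*, -0.20 to 0.37 for *mt-Nd6* and -0.21 to 0.10 for *mt-Cytb*. It gave -0.04 to 1.0 for *Sdhd*, -0.23 to 0.04 for *Tfam* and -0.19 to 0.04 for *Polrmt*. The cause was not tested. Adding counts of the nuclear copies was not run, since none has a row.

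Replicate numbers are shared by both genotypes, but same-numbered mice did not deviate together (correlations of -0.152, -0.133, -0.113 and 0.0285, and 1 of 8 mice correlated best with its own number). With the number as a replicate block, 0 of all genes (1427 at an unadjusted p under 0.05 in edgeR), 0 nuclear list genes (0 in complex V) and 0 mitochondrial mRNAs passed, *mt-Nd5* was 0.04 and *mt-Cytb* 0.01.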

Other observations

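The balance among the abundant mitochondrial mRNAs varied between mice of the same genotype, although all but *mt-Nd6* are cut from RNA of the same strand. *mt-Nd4* was 5.07, 2.56, 5.35 and 3.60 times *mt-Cytb* in WT mice 1 to 4 and 6.64, 5.21, 4.07 and 4.87 times in KIKO mice 1 to 4. Against *mt-Nd1* it was 4.78 to 8.49 times in WT and 7.20 to 9.04 times in KIKO mice, and against *mt-Nd2* 5.27, 3.13, 6.66 and 3.28 times in WT and 5.78, 4.82, 3.68 and 5.02 times in KIKO mice. Genotypes overlapped for each of these ratios, and WT mouse 2 had the lowest of the 8 values for each, while WT mouse 3 and KIKO mouse 1 had the 2 highest.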
